A study of Homo sapiens with 64 samples.

Results

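TXNIP and 3 related α-arrestin genes, ARRDC2, ARRDC3 and ARRDC4, were followed through each count table of a study of human cells depleted of FBL or NOP56. The 4 genes were taken by name and were chosen by the difference of siFBL from siCTRL in HEK293T cells, in which TXNIP was among the largest rises. All 4 were found in the 25207 genes of the HEK293T table, in the 26364 genes of the C4-2 tables and in the 31796 gene names of the SLAM-seq files. Fibrillarin (FBL) catalyses the 2′-O-methylation of ribosomal RNA within box C/D snoRNPs, particles in which NOP56 is another core protein. In HEK293T cells, an embryonic kidney line that carries the simian virus large T antigen, siFBL, siNOP56 and the control siRNA siCTRL were compared at 0, 6, 12 and 24 h, with 2 libraries per siRNA and hour. In C4-2 cells, an androgen-independent prostate cancer line, siFBL and siCTRL were compared at 0, 3, 6 and 12 h, with 2 libraries each. RNA immunoprecipitated with an anti-FBL antibody (RIP) was compared with its input in C4-2 cells carrying siCTRL, with 2 libraries each. SLAM-seq of C4-2 cells with siFBL or siCTRL gave 16 libraries labelled 0, 6, 12 and 24 h after 4-thiouridine was removed. HEK293T cells were grown in DMEM and C4-2 cells in RPMI 1640, both with serum. The series design names shNOP56 where the sample labels name siNOP56, and the labels were followed. The labels give mRNA half-life as the purpose of the hours. Whether and how transcription was stopped, the siRNA sequences and the time from transfection to 0 h are unknown here (not given in the sources used).

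TXNIP, the thioredoxin-interacting protein, binds and inhibits thioredoxin and restrains glucose uptake by drawing glucose transporters from the cell surface. Its gene is switched on by the glucose-sensing factors MondoA (MLXIP) and ChREBP (MLXIPL), each paired with MLX, at a carbohydrate response element in the promoter, and its mRNA and protein turn over quickly. ARRDC2, ARRDC3 and ARRDC4 share its arrestin fold and carry PY motifs that recruit ubiquitin ligases of the NEDD4 family to membrane cargo. ARRDC4 is a further reported target of MondoA.

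The promoters of TXNIP and ARRDC4 are shown because both genes are reported targets of MondoA and because the levels of both were above those of siCTRL in HEK293T cells with siFBL. Sequences are from RefSeq on GRCh38.p14 and run from 250 bases before to 50 bases after the annotated start. TXNIP lies on the minus strand at chr1:145996530-145996829 and ARRDC4 on the plus strand at chr15:97960453-97960752. Capitals mark matches, on either strand, to the carbohydrate response element of TXNIP in the form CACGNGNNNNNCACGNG, to the E-box CACGTG and to the CCAAT box.
TXNIP promoter: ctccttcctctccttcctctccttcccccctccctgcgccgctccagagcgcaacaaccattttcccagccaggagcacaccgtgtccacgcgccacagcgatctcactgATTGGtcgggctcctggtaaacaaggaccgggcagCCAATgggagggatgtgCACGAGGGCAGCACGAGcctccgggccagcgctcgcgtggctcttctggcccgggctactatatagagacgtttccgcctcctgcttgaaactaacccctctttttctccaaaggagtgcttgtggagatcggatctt
ARRDC4 promoter: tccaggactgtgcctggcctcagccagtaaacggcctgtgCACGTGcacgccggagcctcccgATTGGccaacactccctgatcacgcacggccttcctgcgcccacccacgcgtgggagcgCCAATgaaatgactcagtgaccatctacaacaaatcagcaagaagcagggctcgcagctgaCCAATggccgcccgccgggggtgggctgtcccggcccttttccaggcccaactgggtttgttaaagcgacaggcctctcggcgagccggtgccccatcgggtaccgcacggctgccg
The TXNIP promoter holds 1 match to the carbohydrate response element, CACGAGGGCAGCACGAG at chr1:145996651-145996667, which begins 88 bases before the start. This 17-base pattern occurs in 20 of 34796 RefSeq promoters of the same length (0.0575%) and in no other promoter of the 4 genes. The pattern was written for the TXNIP element, so the match in TXNIP was given in advance. Looser forms of the element were not searched, so the other promoters may still hold one. The ARRDC4 promoter holds 1 CACGTG, as do 7.20% of all promoters, and 3 CCAAT boxes, and the TXNIP promoter holds 2 CCAAT boxes. CCAAT occurs in 34.6% of all promoters. RefSeq lists a second start each for TXNIP, ARRDC2 and ARRDC3. Of these promoters and the first ones of ARRDC2 and ARRDC3, 1 of ARRDC2 and 1 of ARRDC3 hold a single CCAAT and none holds either of the other motifs. The patterns do not overlap one another in the windows shown.

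In GENCODE 29 on GRCh38, TXNIP spans chr1:145992435-145996600, ARRDC2 chr19:18001132-18014102, ARRDC3 chr5:91368724-91383359 and ARRDC4 chr15:97960698-97973838. ARRDC3 shares 3011 bases with the antisense gene ARRDC3-AS1, which had 9 to 36 counts in the HEK293T libraries and 85 to 213 in the C4-2 time course. The short unclassified gene AC020904.3 shares 442 bases with ARRDC2. The sources do not state strand for the counting, and reads from these overlaps cannot be told apart.

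The HEK293T libraries held 16 to 19.9 M counts, the C4-2 time course 79.0 to 106.1 M, RIP and input 22.9 to 33.3 M, and SLAM-seq 14.3 to 60.3 M mapped reads. Levels below are CPM, read counts per M reads of the library, after scaling by trimmed mean of M-values (TMM) factors. FBL lay between 7.19 and 17.7 CPM in the 8 HEK293T libraries with siFBL, against 303 to 485 CPM with siCTRL. In C4-2 cells it lay between 0.601 and 3.63 CPM with siFBL, against 265 to 388 CPM with siCTRL. NOP56 lay between 49.9 and 91.9 CPM with siNOP56 in HEK293T cells, against 146 to 206 CPM with siCTRL. The summed level of 8 prostate markers was 5505 to 8247 unscaled CPM in C4-2 libraries and 7.81 to 63.4 in HEK293T libraries, and that of 4 leukocyte markers was 1.56 to 5.83 over both lines. The TMM factors of the HEK293T libraries lay between 1.21 and 1.33 at 0 h and between 0.798 and 0.889 at 24 h, and those of C4-2 between 1.02 and 1.34 at 0 h and between 0.791 and 0.982 at 12 h. A level at a later hour is therefore relative to the mRNA still present, and a loss shared by all mRNAs would not be seen. In bulk libraries, fewer cells with a transcript and less of it per cell cannot be told apart.

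TXNIP was highest in HEK293T cells with siFBL at 0 h. It had 73.2 and 65.8 CPM with siFBL, 40.0 and 41.1 CPM with siNOP56, and 21.0 and 18.7 CPM with siCTRL. The 3 groups did not overlap, and the order was siFBL, siNOP56, siCTRL. The fitted difference of siFBL from siCTRL was 1.81 on the log2 scale (SE 0.26), or 3.50-fold. This difference chose TXNIP and is given as a description without a test. In the same contrast 1.74% of the 14939 genes tested passed an edgeR adjusted p of 0.05, and at 6, 12 and 24 h 6.63%, 10.9% and 15.1% did.

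The difference of siFBL from siCTRL was smaller at each later hour. At 6 h TXNIP had 20.8 and 13.5 CPM with siFBL, 12.1 and 15.7 CPM with siNOP56, and 9.55 and 8.05 CPM with siCTRL. At 12 h it had 15.9 and 13.3 CPM with siFBL, 13 and 15.2 CPM with siNOP56, and 10.2 and 10.7 CPM with siCTRL. At 24 h it had 19.8 and 10.9 CPM with siFBL, 14.5 and 11.0 CPM with siNOP56, and 13.3 and 9.90 CPM with siCTRL. The libraries of both knockdowns lay above those of siCTRL at 6 and 12 h, and all 3 groups overlapped at 24 h. The siFBL and siNOP56 libraries overlapped each other at each of these 3 hours. Fitted differences of siFBL from siCTRL were 0.96, 0.49 and 0.40 on the log2 scale at 6, 12 and 24 h.

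**Figure D1:**
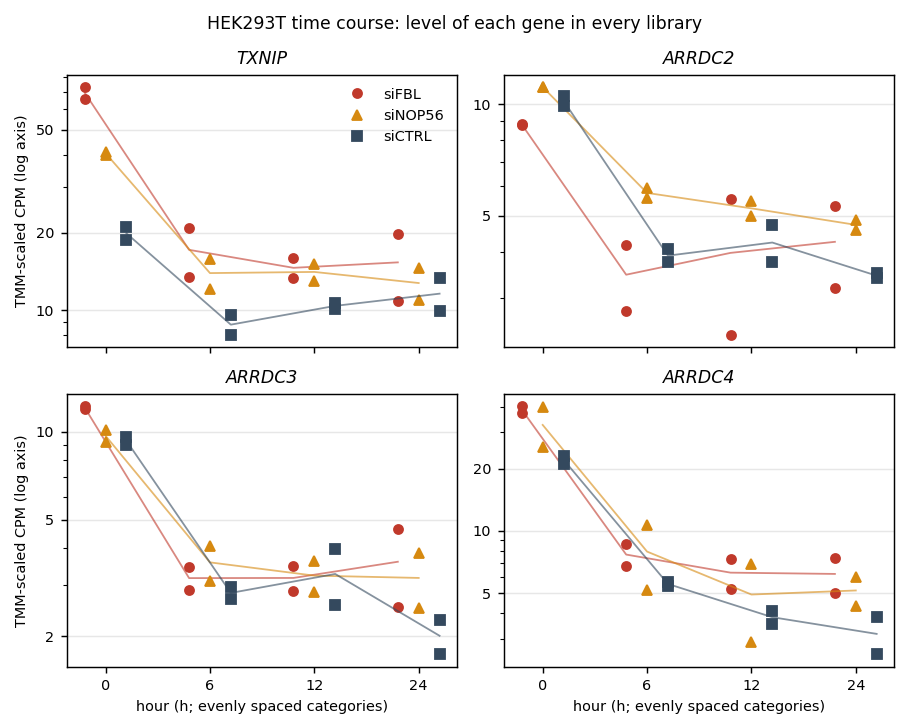
Level of TXNIP, ARRDC2, ARRDC3 and ARRDC4 in every HEK293T library, in TMM-scaled CPM on a log axis, by hour (evenly spaced); red circles are siFBL, orange triangles siNOP56 and dark squares siCTRL, and lines join the means of 2 libraries. At 0 h TXNIP stands at 65.8 to 73.2 CPM with siFBL and at 18.7 to 21.0 CPM with siCTRL, and all 4 genes are lower at 6 h than at 0 h with each siRNA.

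ARRDC4 was the gene of the set whose siFBL libraries lay above those of siCTRL at all 4 hours in HEK293T cells. At 0 h it had 40.1 and 37.2 CPM with siFBL, 25.6 and 39.7 CPM with siNOP56, and 23.2 and 21.1 CPM with siCTRL. The siNOP56 libraries lay above siCTRL, and one of them reached the siFBL level. Fitted differences of siFBL from siCTRL were 0.80, 0.47, 0.72 and 0.96 on the log2 scale at 0, 6, 12 and 24 h, with SE between 0.35 and 0.40. At 24 h ARRDC4 had 4.99 and 7.39 CPM with siFBL, 4.32 and 5.97 CPM with siNOP56, and 2.53 and 3.81 CPM with siCTRL.

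ARRDC3 and ARRDC2 differed less between the siRNAs at 0 h. ARRDC3 had 12.0 and 12.2 CPM with siFBL, 10.2 and 9.21 CPM with siNOP56, and 9.0 and 9.64 CPM with siCTRL, and its siFBL libraries lay above siCTRL. The fitted difference of siFBL from siCTRL was 0.38 (SE 0.26) at 0 h and 0.83 (SE 0.31) at 24 h, and the libraries overlapped at 6 and 12 h. ARRDC2 had 8.77 and 8.84 CPM with siFBL, 11.1 and 11.1 CPM with siNOP56, and 10.5 and 9.90 CPM with siCTRL. Its siFBL libraries lay below siCTRL at 0 h, with a fitted difference of -0.21 (SE 0.28), and overlapped them at the later hours. As the set was drawn up with this contrast in view, these values are descriptions.

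The contrast of siNOP56 with siCTRL uses other treated libraries but the same control libraries. None of the 4 genes passed the threshold in it at any hour, where 0.187%, 0.683%, 1.53% and 5.31% of 14939 genes did at 0, 6, 12 and 24 h. TXNIP came nearest at 0 h, at 2.04-fold (log2 1.03, SE 0.25, edgeR adjusted p = 0.113, higher in 2 of 2 libraries). DESeq2 gave a log2 difference of 0.99 with an adjusted p of 0.0197, so that the call depended on the model used. At 6, 12 and 24 h the TXNIP difference was 0.66, 0.44 and 0.14 (edgeR adjusted p = 0.261, 0.407 and 0.806). ARRDC4 differed by 0.56, 0.52, 0.37 and 0.69 at the 4 hours (edgeR adjusted p between 0.347 and 0.684). Its libraries overlapped at 6 and 12 h, and without the second siNOP56 library the values at those hours were -0.10 and -0.40. ARRDC2 differed by 0.12 and ARRDC3 by 0.06 at 0 h (edgeR adjusted p = 0.907 and 0.961), with 95% intervals of -0.42 to 0.67 and -0.46 to 0.58, which include changes of the size seen for ARRDC4.

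All 4 genes were lower at 6 h than at 0 h in HEK293T cells with each siRNA. With siCTRL, TXNIP at 6 h stood at 44.3% of its 0 h mean, ARRDC2 at 38.3%, ARRDC3 at 30.2% and ARRDC4 at 25.0%. With siFBL, TXNIP stood at 24.7% at 6 h, and with siNOP56 at 34.4%. Relative to other mRNAs, TXNIP did not go on falling with siCTRL, where it stood at 58.4% ± 12.1 of its 0 h mean at 24 h (SD, n = 2), while ARRDC4 stood at 14.3% ± 4.10 (SD, n = 2). On unscaled CPM the same TXNIP share was 38.5%. As a straight line over 24 h, the TXNIP slope with siCTRL was -0.024 log2 units per hour (SE 0.022, edgeR adjusted p = 0.357), so no fall was called. The first 6 h alone gave -0.21 per hour (edgeR adjusted p = 0.00104). The slopes of ARRDC2, ARRDC3 and ARRDC4 with siCTRL were -0.058, -0.084 and -0.11 per hour (edgeR adjusted p = 0.0139, 0.00676 and 0.00460), where 50.1% of all genes had a called slope and 28.3% a negative one. ARRDC2 lost its call without the first siCTRL library at 0 h (-0.049, edgeR adjusted p = 0.0734) or the second (-0.051, adjusted p = 0.0623).

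With siNOP56 all 4 slopes were called and negative, as were 29% of all genes, with 50.8% called in either direction. They were -0.061 for TXNIP, -0.046 for ARRDC2, -0.061 for ARRDC3 and -0.10 for ARRDC4 (edgeR adjusted p = 0.0238, 0.0401, 0.0303 and 0.00537). The slope of siNOP56 minus that of siCTRL was -0.037 for TXNIP (interval -0.096 to 0.023) and between 0.0065 and 0.023 for the others (edgeR adjusted p = 1 each). No gene was called for this difference by edgeR (0%), 197 of 14939 had an unadjusted p below 0.05, and DESeq2 called 3. In a test added after seeing the values, the TXNIP effect of siNOP56 at 24 h minus that at 0 h was -0.89 (SE 0.37, unadjusted p = 0.0264, edgeR adjusted p = 1). There edgeR called no gene (0%), 543 had an unadjusted p below 0.05, and DESeq2 called 10. This test reuses the siCTRL libraries at 0 h that entered the contrast by which TXNIP was chosen. Its p-value for TXNIP is therefore not independent of that choice.

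C4-2 cells were not used to choose the genes, and there TXNIP also rose with siFBL at 0 h. It had 139 and 168 CPM with siFBL, against 89.3 and 76.3 CPM with siCTRL, and the groups did not overlap. The difference was 1.85-fold (log2 0.89, SE 0.23, interval 0.44 to 1.34, edgeR adjusted p = 0.0245, higher in 2 of 2 libraries). In this contrast 8.48% of 23437 genes were called, with 1.61% of all genes called higher and 6.87% called lower, so that TXNIP belonged to the smaller direction. The call was lost without siCTRL library A (log2 1.002, adjusted p = 0.119), without siCTRL library B (0.77, adjusted p = 0.153) and without siFBL library B (0.74, adjusted p = 0.145). It held with the other scalings, without the filter on low counts, with DESeq2 (0.82, adjusted p = 0.00374) with the 0 h libraries alone (0.97, adjusted p = 0.00376) and without siFBL library A (1.02, adjusted p = 0.0495).

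ARRDC2, ARRDC3 and ARRDC4 were not called in C4-2 cells at 0 h. ARRDC4 had 16.2 and 12.0 CPM with siFBL, against 12.6 and 11.0 CPM with siCTRL (log2 0.26, interval -0.46 to 0.97, edgeR adjusted p = 0.687). ARRDC3 had 22.1 and 41.0 CPM with siFBL, against 35.6 and 27.5 CPM with siCTRL, so that the siFBL libraries lay on either side of the siCTRL libraries (interval -0.79 to 0.79, edgeR adjusted p = 1). ARRDC2 had 13.8 and 12.6 CPM with siFBL, against 14.5 and 12.9 CPM with siCTRL (log2 -0.05, interval -0.78 to 0.67, edgeR adjusted p = 0.941). On unscaled CPM both siFBL libraries lay above siCTRL for ARRDC2 and ARRDC4, while they overlapped after scaling.

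At the later hours TXNIP stood lower with siFBL than with siCTRL in C4-2 cells. At 3 h it had 4.06 and 3.77 CPM with siFBL, against 5.00 and 5.01 CPM with siCTRL. At 6 h it had 2.49 and 1.74 CPM with siFBL, against 3.83 and 3.82 CPM with siCTRL. At 12 h it had 1.14 and 0.690 CPM with siFBL, against 2.65 and 1.69 CPM with siCTRL. The libraries did not overlap at any of these hours, and each siFBL library lay below each siCTRL library, the reverse of 0 h. The difference was -0.35 at 3 h (edgeR adjusted p = 0.347), -0.85 at 6 h (adjusted p = 0.0379) and -1.25 at 12 h (adjusted p = 0.00465). Called genes made up 11.9%, 9.05% and 13.4% of 23437 at 3, 6 and 12 h, and 8.94%, 6.92% and 10.7% were called lower.

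These later calls rested on few libraries. At 6 h the call was lost without siCTRL library A (-0.85, edgeR adjusted p = 0.160), siCTRL library B (-0.86, adjusted p = 0.156) or siFBL library B (-0.62, adjusted p = 0.254), with relative log expression factors (-0.76, adjusted p = 0.0569) and when scaled to ribosomal protein mRNAs (-0.71, adjusted p = 0.0645). At 12 h it was lost without siCTRL library A (-0.88, edgeR adjusted p = 0.0941) or siFBL library B (-0.93, adjusted p = 0.0694). The direction was the same in all 9 alternatives at each of these 2 hours.

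**Figure D2:**
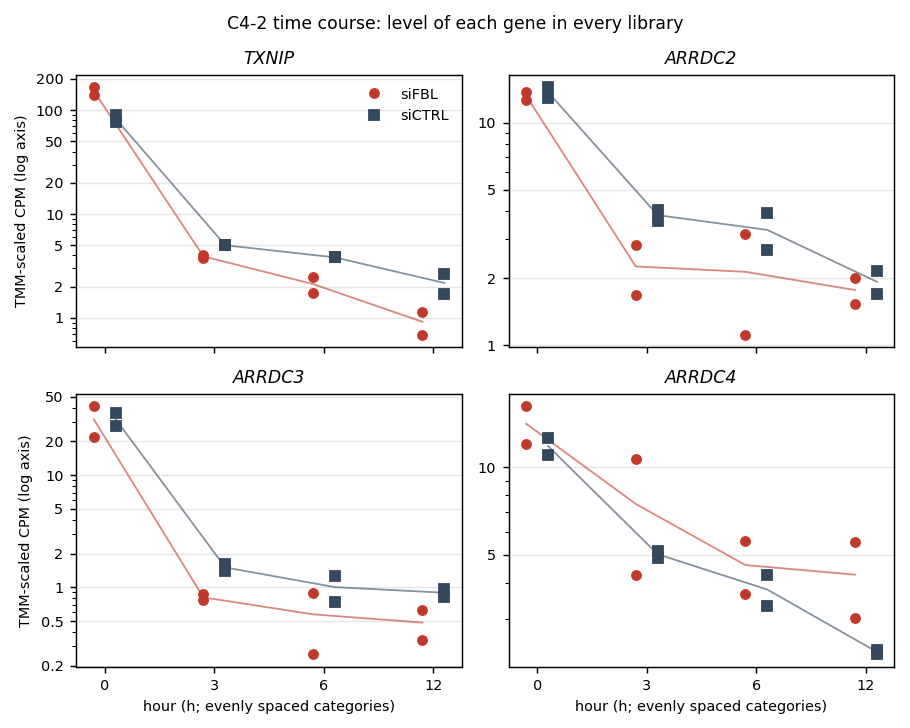
Level of the 4 genes in every C4-2 library of the time course, in TMM-scaled CPM on a log axis, by hour (evenly spaced); red circles are siFBL and dark squares siCTRL, and lines join the means of 2 libraries. For TXNIP the siFBL libraries lie above siCTRL at 0 h (139 and 168 against 89.3 and 76.3 CPM) and below siCTRL at 3, 6 and 12 h.

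ARRDC3 had a course like that of TXNIP after 0 h, without passing the test. It had 0.763 and 0.864 CPM with siFBL, against 1.6 and 1.40 CPM with siCTRL, at 3 h (log2 -0.89, edgeR adjusted p = 0.204), and 0.336 and 0.632 CPM with siFBL, against 0.825 and 0.964 CPM with siCTRL, at 12 h (log2 -0.88, adjusted p = 0.255). The libraries overlapped at 6 h, when siFBL library B had 0.253 CPM and siFBL library A 0.895 CPM. Without siFBL library A the 6 h difference was -1.98 (edgeR adjusted p = 0.0205) and without library B it was -0.16 (adjusted p = 0.875).

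ARRDC2 had 2.84 and 1.69 CPM with siFBL at 3 h, against 3.64 and 4.06 CPM with siCTRL (log2 -0.76, edgeR adjusted p = 0.203), and overlapped at 6 and 12 h. Its 6 h difference was also decided by one library. It was -1.56 without siFBL library A (edgeR adjusted p = 0.0148) and -0.06 without library B (adjusted p = 0.953).

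ARRDC4 was not called at any hour in C4-2 cells. Its fitted differences were positive, but without siFBL library A they were -0.24 at 3 h and -0.05 at 6 h. At 12 h it had 5.51 and 3.01 CPM with siFBL, against 2.35 and 2.27 CPM with siCTRL (log2 0.88, interval 0.14 to 1.63, edgeR adjusted p = 0.144). At 3 h its siFBL libraries had 10.7 and 4.24 CPM and enclosed the siCTRL libraries at 5.15 and 4.88 CPM. In 9 of 9 alternatives at 12 h the difference was positive and in none was it called.

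The falls within C4-2 cells were large. With siFBL, TXNIP at 3 h stood at 2.56% ± 0.14 of its 0 h mean, and with siCTRL at 6.04% ± 0.0056 (SD, n = 2 each). At 12 h it stood at 0.598% ± 0.21 with siFBL and at 2.62% ± 0.82 with siCTRL. Both percentages with siFBL lay below those with siCTRL at these hours. ARRDC3 at 3 h stood at 2.58% ± 0.22 with siFBL and at 4.77% ± 0.45 with siCTRL. ARRDC2 at 3 h stood at 17.1% ± 6.16 with siFBL and at 28.1% ± 2.15 with siCTRL. ARRDC4 fell the least of the 4, and at 3 h stood at 52.9% ± 32.4 with siFBL and at 42.4% ± 1.58 with siCTRL. For TXNIP, ARRDC2 and ARRDC3 the siFBL percentages lay below those of siCTRL at 3 h, while for ARRDC4 they overlapped.

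As a straight line over 12 h, each slope was called with both siRNAs in C4-2 cells. With siFBL, TXNIP fell by 0.61 log2 units per hour, ARRDC3 by 0.49, ARRDC2 by 0.22 and ARRDC4 by 0.14 (edgeR adjusted p between 0.000102 and 0.00332). With siCTRL, TXNIP fell by 0.42, ARRDC3 by 0.41, ARRDC2 by 0.22 and ARRDC4 by 0.19 (edgeR adjusted p between 0.000384 and 0.00443). Called slopes made up 35.1% of all genes with siFBL and 34.1% with siCTRL, and negative ones 19.2% and 18.6%. With the first 3 h alone, ARRDC4 lost its call with siCTRL (-0.39 per hour, adjusted p = 0.0735) and the other 3 genes kept theirs.

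The slopes did not differ between siFBL and siCTRL by this test. The slope of siFBL minus that of siCTRL was -0.19 for TXNIP (SE 0.12, interval -0.42 to 0.04), -0.08 for ARRDC3, 0.00 for ARRDC2 and 0.05 for ARRDC4 (edgeR adjusted p = 1 each). Of 23437 genes 1 was called (0.00427%) and 1117 had an unadjusted p below 0.05. Most of the TXNIP fall lay before 3 h, which a straight line does not follow.

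The change of the siFBL effect with the hour was therefore also tested directly, as a comparison added after the values were seen. The TXNIP effect of siFBL at 3, 6 and 12 h minus its effect at 0 h was -1.24, -1.74 and -2.14 on the log2 scale. The unadjusted p-values were 0.00175, 9.52e-05 and 1.65e-05, and the edgeR adjusted p-values 1, 1 and 0.103. At 12 h the interval was -2.82 to -1.45, and 13 of 13 alternatives had the same sign. It was called in 3 of them, among which were DESeq2 (-2.01, adjusted p = 2.79e-05) and the fit without siFBL library A at 12 h (-2.54, edgeR adjusted p = 0.0159). For ARRDC2, ARRDC3 and ARRDC4 the 12 h values were -0.07, -0.88 and 0.63 (edgeR adjusted p = 1 each). Over all genes, edgeR called none at 3, 6 or 12 h (0%), 447, 775 and 1165 had an unadjusted p below 0.05, and DESeq2 called 0, 2 and 74.

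**Figure D3:**
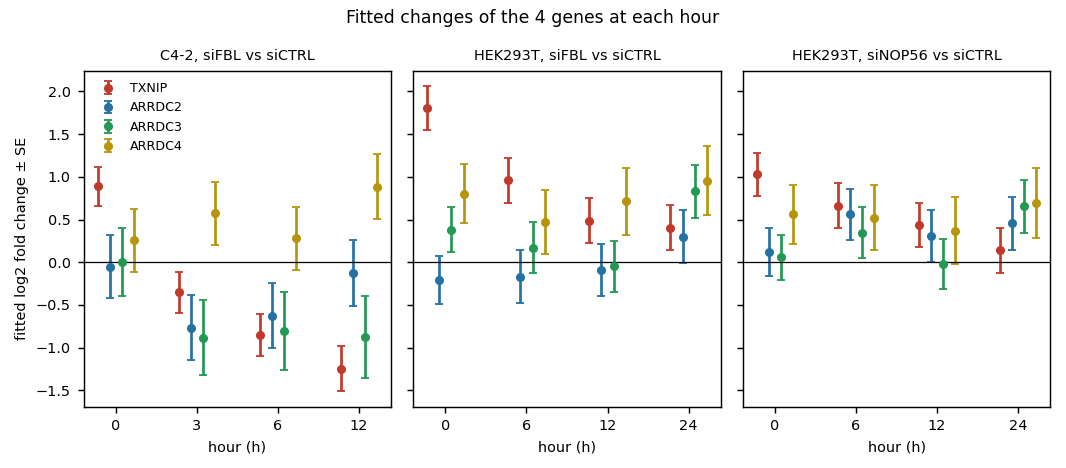
Fitted log2 fold changes with SE of the 4 genes at each hour, for siFBL against siCTRL in C4-2 cells (left), siFBL against siCTRL in HEK293T cells (middle) and siNOP56 against siCTRL in HEK293T cells (right). TXNIP lies at 0.89 at 0 h and -1.25 at 12 h in C4-2 cells, whereas in HEK293T cells with siFBL it lies at 1.81 at 0 h and 0.40 at 24 h.

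In HEK293T cells the corresponding TXNIP values were -0.85, -1.32 and -1.40 at 6, 12 and 24 h for siFBL, given as descriptions. The siFBL and siNOP56 contrasts in HEK293T cells share their siCTRL libraries.

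RNA recovered with the anti-FBL antibody held more TXNIP than its input. TXNIP had 189 and 191 CPM in RIP, against 75.4 and 81.6 CPM in input, and the groups did not overlap. The difference was 2.42-fold (log2 1.27, SE 0.06, edgeR adjusted p = 6.45e-18). ARRDC4 had 40.7 and 39.6 CPM in RIP, against 29.7 and 26.9 CPM in input (log2 0.50, SE 0.08, edgeR adjusted p = 5.44e-07). After this scaling ARRDC4 thus moved the same way as TXNIP by less. ARRDC2 had 20.5 and 22.3 CPM in RIP, against 20.9 and 18.5 CPM in input, and these overlapped (log2 0.12, edgeR adjusted p = 0.202). ARRDC3 was lower, with 58.9 and 52.5 CPM in RIP, against 104 and 93.5 CPM in input (log2 -0.82, SE 0.07, edgeR adjusted p = 3.46e-12).

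Being called says little in this contrast, since 82.9% of 14967 genes were, 39.9% higher and 43% lower in RIP. The TMM factors were 0.721 to 0.722 in RIP and 1.38 to 1.39 in input. Scaled to ribosomal protein mRNAs, the median of all genes shifted by 0.98 and the values of the 4 genes became 2.26 for TXNIP, 1.49 for ARRDC4, 1.11 for ARRDC2 and 0.16 for ARRDC3 (edgeR adjusted p = 1.08e-18, 4.85e-14, 1.49e-10 and 0.0481). The sign for ARRDC3 thus depended on the scaling. On unscaled CPM, without the TMM factors, ARRDC4 and ARRDC2 would be lower in RIP than in input. The signs for these 2 genes thus also depended on the scaling, while TXNIP would still be higher in RIP. No library with a control antibody was analysed, so binding to FBL and to the beads cannot be told apart.

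**Figure D4:**
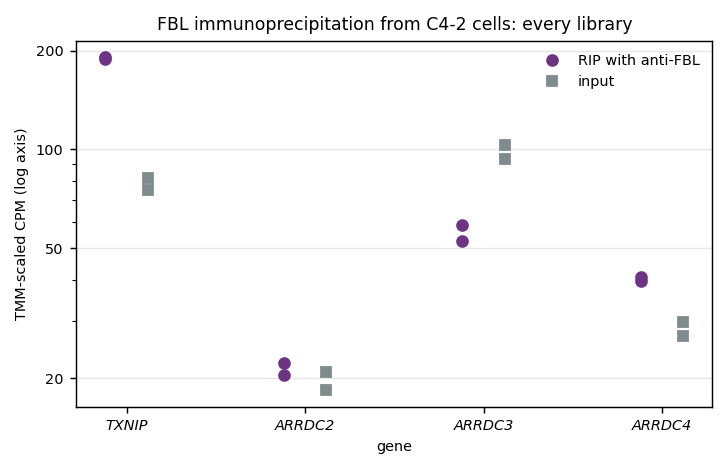
Level of the 4 genes in the RIP libraries (purple circles) and in the input libraries (grey squares) of C4-2 cells with siCTRL, in TMM-scaled CPM on a log axis, with 1 point per library. TXNIP is higher in RIP (189 and 191 against 75.4 and 81.6 CPM) and ARRDC3 is lower in RIP (58.9 and 52.5 against 104 and 93.5 CPM).

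SLAM-seq reads the 4-thiouridine taken up by new RNA as T>C conversions, in libraries of mRNA 3′ ends. Per the labels' protocols, C4-2 cells took up 100 µM 4-thiouridine for 24 h before it was replaced with 10 mM uridine. Each gene was read over its interval with the most reads, on hg38, which is chr1:145992435-145993850 for TXNIP, chr19:18012967-18014088 for ARRDC2, chr5:91368631-91371399 for ARRDC3 and chr15:97971188-97973833 for ARRDC4. These lie in annotated UTR over 100%, 100%, 96.6% and 100% of their length.

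Total SLAM-seq reads were fitted with the labelled hour, and none of the 4 genes was called between siFBL and siCTRL by edgeR, where 0.854% of 15344 genes were. The TXNIP level over the 8 libraries of each siRNA had a lowest, median and highest value of 166, 238 and 268 CPM with siFBL and of 128, 218 and 329 CPM with siCTRL, and the siFBL range lay inside that of siCTRL. The difference was 0.08 (interval -0.22 to 0.37, edgeR adjusted p = 0.889). ARRDC2 had 9.15, 15.4 and 20.9 CPM with siFBL and 16, 19.0 and 22.4 CPM with siCTRL (log2 -0.36, interval -0.70 to -0.02, edgeR adjusted p = 0.379). ARRDC3 had 53.7, 73.5 and 153 CPM with siFBL and 47.3, 81.7 and 160 CPM with siCTRL (log2 -0.11, edgeR adjusted p = 0.922). ARRDC4 had 2.29, 4.22 and 7.57 CPM with siFBL and 3.08, 4.59 and 7.16 CPM with siCTRL (log2 -0.22, edgeR adjusted p = 0.792). The ranges overlapped for every gene. FBL lay between 0 and 0.0865 CPM with siFBL and between 0.126 and 1.94 CPM with siCTRL. Its interval spans 80 bases and held 209 reads over the 16 libraries. Every one of these reads held a T>C conversion, whichever the library, so they are a weak check of the knockdown.

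The labelled hour does not describe these libraries well. In 12 of 16 the hour in the file header differs from the labelled hour, and in none does the siRNA differ. Libraries that share a labelled hour also stood far apart. In the siFBL libraries labelled 0 h, 51.3% of 3350 TXNIP reads held a T>C conversion in replicate 1 (Wilson 95% interval 49.6 to 53.0), and 1.65% of 6900 reads did in replicate 2 (1.38 to 1.98). In the siCTRL libraries labelled 0 h the shares were 68.5% of 3532 reads in replicate 1 (66.9 to 70.0) and 2.00% of 2943 reads in replicate 2 (1.56 to 2.58). Over the whole library, by the header, conversions per sequenced T were 6.23% and 6.23% at 0 h, 3.09% and 3.06% at 6 h, 1.79% and 1.74% at 12 h and 0.259% and 0.269% at 24 h with siFBL. With siCTRL they were 7.73% and 7.66%, 4.03% and 3.92%, 2.35% and 2.30%, and 0.954% and 0.970% at the same hours. Libraries that share a header hour thus lay close together and fell in the order of the hours, while the siCTRL libraries labelled 0 h had 7.73% and 0.954%. Samples are grouped by their labels, so values by header hour are descriptions and decay is not tested. These intervals cover counting error only.

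By the hour in the header, the direction of the totals differed between hours. TXNIP totals lay between 166 and 188 CPM with siFBL, against 128 to 136 CPM with siCTRL, at header 6 h, and between 247 and 268 CPM with siFBL, against 302 to 329 CPM with siCTRL, at header 24 h. ARRDC3 totals lay between 142 and 153 CPM with siFBL, against 90.6 to 96.6 CPM with siCTRL, at header 12 h, and between 55.6 and 57.6 CPM with siFBL, against 130 to 160 CPM with siCTRL, at header 24 h. For both genes the siFBL libraries thus lay above siCTRL at the earlier of these hours and below at 24 h, and one difference over all hours does not describe them. The siFBL libraries at header 24 h also stood apart for NOP56, at 40.0 and 40.3 reads per M mapped reads. NOP56 had 12.9 and 9.93 with siFBL at header 12 h, and 9.40 and 9.66 with siCTRL at header 24 h. Whether the reversal at header 24 h belongs to TXNIP and ARRDC3 or to these libraries as a whole was not tested. At header 0 h, TXNIP totals lay between 237 and 238 CPM with siFBL, against 220 to 236 CPM with siCTRL. A difference as large as the 1.85-fold rise at 0 h in the C4-2 time course was therefore not seen there. The 2 measures at 0 h are not alike, since the SLAM-seq cells had taken up 4-thiouridine for 24 h and were read at 3′ ends. With the header hour in place of the labelled hour in the fit, a choice made after seeing the data, the differences were 0.10 for TXNIP, -0.39 for ARRDC2, -0.01 for ARRDC3 and -0.24 for ARRDC4 (edgeR adjusted p = 0.510, 0.0907, 0.984 and 0.518). None of the 4 was called in that fit either, while the count of called genes was 1601.

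By the hour in the header, the TXNIP shares were 51.3% and 54.2% with siFBL, against 68.5% and 69.2% with siCTRL, in libraries whose header names 0 h. They were 5.39% and 5.55% with siFBL, against 6.65% and 6.60% with siCTRL, where it names 6 h. They were 1.53% to 2.42% with siFBL and 1.59% to 3.01% with siCTRL where it names 12 or 24 h. With either siRNA the TXNIP share was far lower at header 6 h than at header 0 h. The shares of all reads in the library at header 6 h were 31.1% to 31.4% with siFBL and 34.9% to 35.5% with siCTRL, so the TXNIP share lay below that of its library in all 4. The ARRDC4 shares at header 6 h were higher, 15.8% and 17% with siFBL and 26.0% and 28.4% with siCTRL, on 76 to 127 reads each. ARRDC3 had 5.91% and 6.68% with siFBL and 5.39% and 8.89% with siCTRL there, and ARRDC2 had 3.83% and 4.91% with siFBL and 6.27% and 14.3% with siCTRL.

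**Figure D5:**
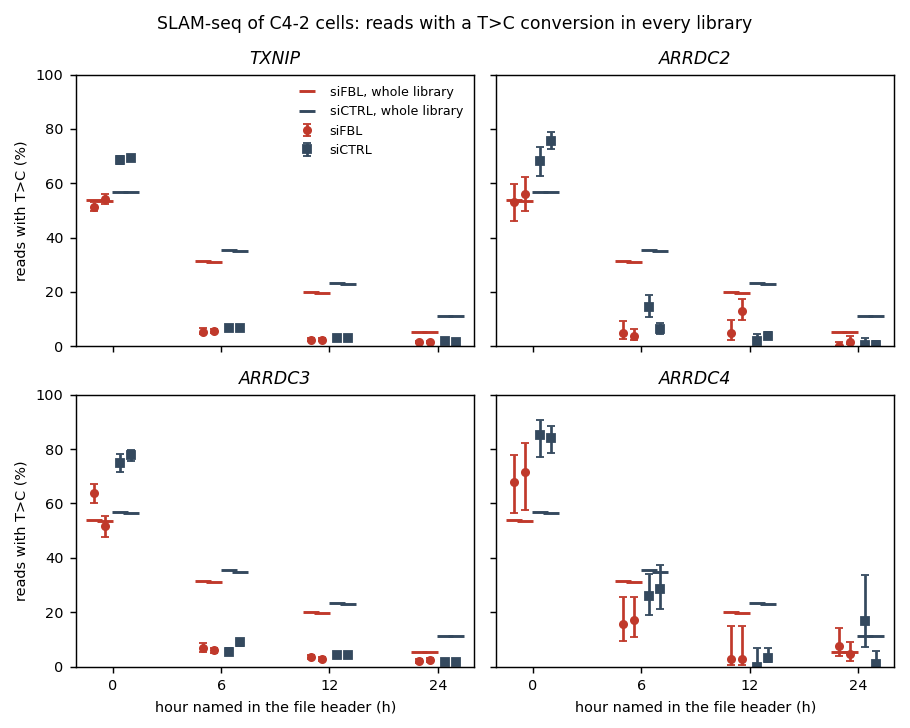
Share of reads with a T>C conversion, in percent with Wilson 95% intervals, for the 4 genes in every SLAM-seq library of C4-2 cells, by the hour named in the file header; red circles are siFBL and dark squares siCTRL, and short horizontal bars are the share over all reads of the same library. At header 0 h TXNIP has 51.3% and 54.2% with siFBL and 68.5% and 69.2% with siCTRL, and at header 6 h it lies at 5.39% to 6.65%, below its libraries.

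The base counts also put TXNIP lower with siFBL than with siCTRL at header 0 h, and far lower at the later header hours. Against the whole library the 2 measures differed. At header 0 h with siCTRL the TXNIP read shares lay above those of their libraries (56.8% and 56.7%), while its base rates lay below. TXNIP conversions per sequenced T were 3.18% and 3.50% with siFBL and 5.63% and 5.38% with siCTRL at header 0 h, and 0.0466% to 0.235% in the other 12 libraries. Over the whole library the rate at header 0 h was also lower with siFBL, at 6.23% in both libraries, against 7.73% and 7.66% with siCTRL, so that the label available to the gene differed between the groups and its part in the TXNIP values was not tested. ARRDC4 at header 0 h had 6.68% and 7.15% with siFBL and 12.8% and 13.7% with siCTRL, above its library in all 4, on 49 to 197 reads each. No library without 4-thiouridine was analysed. How much of the low shares and rates at the later header hours is background T>C is therefore not known.

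Of the other genes around TXNIP, 79 in 8 lists were followed, and 10 of 79 were called in C4-2 cells with siFBL at 0 h (12.7%, beside 8.48% of all genes), 3 higher and 7 lower. In the thioredoxin system PRDX5, a peroxiredoxin, rose (log2 0.42) and GLRX2, a mitochondrial glutaredoxin, fell by 0.71, with 15 of 17 not called (list median -0.12, all genes 0.04). Among 11 transcriptional regulators of TXNIP, MLX, the partner of MondoA and ChREBP, was the one called and fell by 0.43. Among 8 other reported targets of MondoA or ChREBP, the hexokinase HK2 and the glycolytic regulator PFKFB3 fell by 0.84 and 0.83, and none rose (list median -0.36). Among 11 glucose transporters SLC2A12 rose (log2 1.03), and among 9 other arrestins and arrestin-fold genes ARRB1 fell by 0.49. None of 9 NEDD4-family ligases was called. Of 7 AMPK subunits, the kinase that marks TXNIP for degradation, PRKAA2 fell by 1.25. Among 7 other TXNIP partners the stress-induced DDIT4 rose (log2 1.22) and the nuclear import factor KPNA2 fell by 1.62. edgeR adjusted p-values of these 10 genes lay between 0.000316 and 0.0414.

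In HEK293T cells with siNOP56 at 0 h, 1 of the 72 list genes tested was called, DDIT4, which fell by 1.43 (edgeR adjusted p = 0.0460), beside 0.187% of all genes. Its direction was the opposite of that in C4-2 cells with siFBL. In SLAM-seq totals 1 of 65 was called, SLC2A12, which rose with siFBL there too (log2 1.41, edgeR adjusted p = 0.0156).

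In RIP against input, 64 of 71 list genes were called (90.1%, beside 82.9% of all genes), 28 higher and 36 lower. All 10 glucose transporters tested were lower in RIP (list median -1.12, all genes -0.11), led by SLC2A10 and SLC2A3 at -1.41 and -1.23, although 4 of the 10 would be positive after the median shift of the ribosomal protein scaling. Of 8 NEDD4-family ligases 7 were higher and none lower (list median 0.91), with WWP1 at 2.25 and NEDD4 at 1.42. In the thioredoxin system 4 of 17 were higher and 11 lower, with TXN itself at -3.65 and GLRX at -2.86. Of 11 regulators 7 were higher and 3 lower, with HIF1A at 2.17 and HSF1 at 1.53. Of 7 MondoA or ChREBP targets 4 were higher and 3 lower, and of 6 other arrestins and arrestin-fold genes 1 was higher and 5 lower. Of 6 AMPK subunits 2 were higher and 2 lower, and of 6 other partners 3 were higher and 2 lower. With the shift of the ribosomal protein scaling the thioredoxin system would have 13 positive values of 17. The other arrestins and arrestin-fold genes would have 3 of 6, so the direction of these lists depends on the scaling. On unscaled CPM, without the TMM factors, values would move down instead, as for ARRDC4 and ARRDC2. Part of the higher values among the regulators (list median 0.48) and the NEDD4-family ligases thus also depends on the scaling.

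Genes with courses most like that of TXNIP were ranked by Pearson's r of log2(CPM + 1) over genes that averaged 5 CPM or more. Over the 24 HEK293T libraries, HOXA3 led 10359 genes at r = 0.95, followed by ZNF202, ZBTB2, AEN and ZBTB7A at 0.92 each, ARRDC4 had rank 162 at 0.86 and ARRDC2 rank 1611 at 0.74. ARRDC3 stood at 0.86 but averaged under 5 CPM and had no rank. Over the 16 C4-2 libraries, ZNF217 led 10027 genes at 0.99, followed by EFNA1, ZSCAN25, MYC and ZNF703 at 0.99 each, and ARRDC3 had rank 29 at 0.98. ARRDC2 stood at 0.96 and ARRDC4 at 0.85 there. The libraries share the hours, and these values are descriptions.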

How the data were processed

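RNA-seq was measured in HEK293T and C4-2 time courses, FBL RIP with input, and SLAM-seq, 60 of 64 libraries; 4 nanopore libraries were not analysed here. For the time courses and RIP the authors deposited read counts by gene symbol, in whole numbers. TopHat2 2.1.1, HOMER, hg19, hg38 and GRCh38.p13 are named per the submitters' processing notes without a role, and no counting tool is named (not given in the sources used here). The SLAM-seq counts of reads, T>C reads, T positions and conversions per interval were deposited by the authors from slamdunk 0.4.3 on hg38, per the file headers. Trim Galore is named per the submitters' processing notes. The CPM column that the authors deposited is called a score here and served to recover mapped reads. For each gene the interval holding the most reads was used.

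Groups follow the labels. The columns of the C4-2 time course carry a replicate number that was not tied to a sample label, and A and B stand for numbers 1 and 2. Nothing states that replicates are separate cultures, so p-values measure the spread between these samples, which may be technical; replicates differed by more than sampling noise. The members, the lists and the comparisons were chosen with earlier results of these data known. Counts were fitted on whole tables with edgeR 4.0.16 in R 4.3.3 (TMM, its filter on low counts, quasi-likelihood test), with 1 mean per siRNA and hour or with a slope per siRNA; Benjamini-Hochberg adjusted p below 0.05 is a call. A change in slope is the interaction of siRNA and hour. SLAM-seq totals were fitted with siRNA and labelled hour (12 of 16 headers give another hour). Intervals of a log2 change are 95% normal intervals from the SE. DESeq2 1.42.0, other scalings, no filter, the replicate number as a block and leaving out each library were alternatives, and the scripts were tested on simulated data. Replicate numbers did not pair the HEK293T samples throughout. The deviations of same-numbered libraries correlated above 0.1 in 22 of 66 pairs of groups (median 0.019, highest 0.92), and in 10 of 28 in C4-2 (median 0.07, highest 0.82). Same-numbered libraries of some groups thus shared deviations. Without the block, the tests of slopes and of differences between hours treat such libraries as independent. Named genes are the 4 members, FBL and NOP56, the 2 called genes of each list with the largest change in each 0 h contrast and RIP, and the 5 genes most like TXNIP.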

Additional observations from a re-analysis of the deposited data

How the results depend on the processing

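Of 660 values for 44 results under alternatives, 596 kept their side of the threshold or moved little, 52 moved, 6 lost a call, 5 gained one and 1 reversed a call. Of 536 values for single genes 29 had another sign than the reported value, and apart from ARRDC3 in RIP neither value was then called. The reversed call was ARRDC3 in RIP against input (0.16, scaled to ribosomal protein mRNAs). The count of called genes for siFBL in C4-2 at 0 h was 3980 by DESeq2 and 633 to 1245 without single libraries, where TXNIP ranged from 0.74 to 1.02. Called C4-2 slopes with siCTRL numbered 2337 with 0 h and the first later hour alone, where ARRDC4 was -0.39. Called slope differences in C4-2 numbered 0 with relative log expression factors, with ribosomal protein scaling, with no filter and with the block, 18 by DESeq2 and 0 to 10 without single libraries. For siNOP56 in HEK293T at 0 h the count of 28 became 18 with relative log expression factors, 6 with ribosomal protein scaling, 213 by DESeq2, 0 with only the compared libraries (edgeR; 3201 at an unadjusted p below 0.05) and 0 to 29 without single libraries. With the replicate number as a block it was 140 and TXNIP was 1.04 (edgeR adjusted p = 0.0410), and by DESeq2 TXNIP was 0.99. The labels tie the samples by a number only, and the block ended no call of the 4 genes. DESeq2 called 3 slope differences for siNOP56. The HEK293T TXNIP slope with siCTRL was -0.21 over the first 6 h, and that of ARRDC2 ranged from -0.068 to -0.049 without single libraries. In HEK293T with siFBL at 0 h, ribosomal protein scaling gave -0.10 for ARRDC2 and 0.49 for ARRDC3, and leaving out libraries gave -0.31 to -0.23 and 0.27 to 0.38. ARRDC2 in RIP was 0.21 with relative log expression factors and 1.11 with ribosomal protein scaling. Called genes in SLAM-seq totals numbered 654 with ribosomal protein scaling, 596 with no filter, 617 by DESeq2, 1601 with the header hour in place of the labelled hour (added after seeing the data) and 68 to 119 without single libraries. In C4-2 a block on the number in the column names, added after seeing the data, ended no call of the 4 genes, gave 0.91 for TXNIP at 0 h and called its effect at 12 h minus 0 h (-2.15, edgeR adjusted p = 0.0211). Scaling to ribosomal protein mRNAs moved the median of all genes by 0.98 in RIP, 0.22 in C4-2 at 0 h, 0.26 at 12 h, 0.18 in SLAM-seq and 0.11 in HEK293T with siFBL at 0 h. Causes were not tested. With 2 libraries a group, and with ARRDC3 below 1 CPM at late C4-2 hours, small changes of the 3 ARRDC genes were not detectable.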
